A study of Mus musculus with 6 samples.

Results

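Patterning transcription factors assign cells to places along the axes of the embryo and to the tissues that form there. The genes described here are the homeobox, paired-box, LIM-homeobox, POU, Zic, T-box, GATA and forkhead factors of a mouse glioblastoma (GBM) expression table. They were chosen by symbol alone: a symbol that starts with Hoxa to Hoxd, Pax, Lhx, Dlx, Nkx, Emx, Otx, Meis, Pbx, Irx, Pou, Msx, Alx, Zic, Tbx or Gata and continues with a number, one of the family of Six2 and Six3, or one that starts with Fox, a letter and a number. The rule took 92 of the 13069 rows, of which 79 passed the filter on low values and were tested. The rule itself uses no measured value, but it was set with earlier results of these data known. The families are 19 forebrain factors, 7 factors of the midbrain, hindbrain and spinal cord, 9 Hox genes, 11 TALE cofactors and Iroquois factors, 24 mesodermal and craniofacial factors, 15 broadly expressed forkheads, 3 other POU factors and 4 antisense rows.

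The samples were neurosphere cultures of mouse GBM, a malignant brain tumour, with the genotypes ATRX knockout (ATRX KO, 3 libraries) and ATRX wild type (ATRX WT, 3 libraries). ATRX is a chromatin remodeller that works with the histone variant H3.3. Tumours were induced in newborn C57BL/6 or FVB mice by Sleeping Beauty plasmids placed in the ventricles: all carried a short hairpin against p53 and an NRAS expression plasmid, with or without a short hairpin against ATRX. The ATRX KO libraries carry the label knockout while the protocol describes a hairpin, and the strain of each culture is not stated. Each genotype is 1 line code, so line and genotype cannot be told apart. The replicates may be technical, and a p-value reflects only how far these 6 libraries spread. Both were kept in a medium for neural stem cells, supplemented with B-27 and N-2 and fed FGF and EGF.

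Hox genes lie in clusters and are used in order along the body axis, from the hindbrain backwards, and in the embryo they are silent in the forebrain, held there by Polycomb repressors and opened elsewhere by trithorax activators. Their proteins bind DNA with the TALE homeodomain partners of the Pbx and Meis families. The forebrain has its own set, with Lhx2, Pax6, Six3 and the class III POU factors, whereas T-box, GATA and many forkhead factors, among them Foxc1, Foxc2, Foxf1 and Foxf2, act in mesoderm, vessel walls, meninges and craniofacial mesenchyme. HOXA genes are known to be active in a subset of human glioblastomas.

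Promoter windows are printed for 5 members that carry the pattern: a pair of adjacent HoxA genes with large falls, the POU factor with 0 reads in ATRX KO, and the mesodermal and forebrain members with the largest rises. Each window runs from 250 bases before to 50 bases after the annotated start, 5′ to 3′ on the gene's strand, from RefSeq on GRCm38.p6. Capitals mark a match on either strand to a TATA box, spelled TATAAA, to a CCAAT box, to a GC box, spelled GGGCGG, or to a forkhead motif, spelled TGTTTAC. Overlapping matches are merged. The windows lie at chr6:52204538-52204837 (minus strand), chr6:52208623-52208922 (minus strand), chrX:110814129-110814428 (plus strand), chr13:31625566-31625865 (plus strand) and chr2:36105359-36105658 (minus strand), where the last is 1 of 3 windows of its gene.
Hoxa5: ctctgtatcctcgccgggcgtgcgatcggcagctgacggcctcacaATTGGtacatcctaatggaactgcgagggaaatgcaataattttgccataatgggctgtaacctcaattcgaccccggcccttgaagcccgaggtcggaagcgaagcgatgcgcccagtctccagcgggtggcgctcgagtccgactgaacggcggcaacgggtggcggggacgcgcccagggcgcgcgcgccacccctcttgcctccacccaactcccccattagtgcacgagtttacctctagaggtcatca
Hoxa6: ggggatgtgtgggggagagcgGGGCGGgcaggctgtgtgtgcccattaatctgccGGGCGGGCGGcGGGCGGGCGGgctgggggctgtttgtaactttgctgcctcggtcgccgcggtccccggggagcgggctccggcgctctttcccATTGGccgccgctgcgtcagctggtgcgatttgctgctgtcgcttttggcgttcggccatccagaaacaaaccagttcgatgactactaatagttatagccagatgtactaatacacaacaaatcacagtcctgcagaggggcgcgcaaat
Pou3f4: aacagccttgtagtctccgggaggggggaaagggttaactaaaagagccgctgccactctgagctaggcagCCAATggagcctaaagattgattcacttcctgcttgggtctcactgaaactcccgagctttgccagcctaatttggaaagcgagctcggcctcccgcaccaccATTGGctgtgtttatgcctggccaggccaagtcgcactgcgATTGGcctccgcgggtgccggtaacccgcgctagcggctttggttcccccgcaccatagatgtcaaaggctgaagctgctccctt
Foxf2: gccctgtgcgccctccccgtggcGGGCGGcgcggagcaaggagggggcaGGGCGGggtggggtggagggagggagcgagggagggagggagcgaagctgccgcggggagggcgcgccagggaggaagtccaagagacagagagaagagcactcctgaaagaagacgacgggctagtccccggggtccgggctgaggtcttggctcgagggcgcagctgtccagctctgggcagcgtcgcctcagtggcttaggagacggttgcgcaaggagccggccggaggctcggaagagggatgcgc
Lhx6: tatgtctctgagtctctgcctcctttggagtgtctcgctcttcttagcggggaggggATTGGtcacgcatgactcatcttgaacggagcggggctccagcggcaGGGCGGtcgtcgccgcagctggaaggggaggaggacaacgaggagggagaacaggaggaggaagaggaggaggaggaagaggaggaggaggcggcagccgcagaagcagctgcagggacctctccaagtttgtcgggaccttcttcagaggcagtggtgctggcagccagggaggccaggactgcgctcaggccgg
The Hoxa6 window holds 5 GC boxes, 4 of them in 2 overlapping pairs, and 1 CCAAT box, that of Hoxa5 1 CCAAT box, and that of Pou3f4 3 CCAAT boxes. Foxf2 has 2 GC boxes, and Lhx6 has 1 GC box and 1 CCAAT box. In all, 62 of the 92 members matched a RefSeq window, with 77 windows. They held a median of 21 CG dinucleotides, against 7 over all 32851 windows of the RefSeq set. That set covers 27025 genes and was not limited to the rows of the expression table. A GC box was present in 63.6% of member windows against 35.7% of all windows, a CCAAT box in 42.9% against 37.4%, a TATA box in 9.09% against 13.6%, and the forkhead motif in 1.30% against 3.65%. CG-rich starts were common to both directions: the median was 25 CG dinucleotides in 29 windows of members that rose and 21 in 36 windows of members that fell, and 16 in the 8 windows of HoxA genes. A match describes these letters only.

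Levels are given as RPKM, reads per kilobase of gene scaled by the library sizes the authors used, computed from whole reads recovered from the deposited values. A fold change is the mean of ATRX KO less that of ATRX WT on the deposited log2 RPKM scale, with the standard error (SE) from limma, and a value in parentheses before an SE is such a log2 fold change. A member is said to have risen or fallen when its p-value adjusted over all 12201 tested rows was under 0.05. Library totals ranged over 22177228 to 32477269 reads for ATRX KO and 34966108 to 38039847 for ATRX WT. Atrx itself had 14.1, 16.6 and 17.1 RPKM in ATRX KO, against 22.3, 22.7 and 21.5 in ATRX WT, so the labelled knockout kept 71.9% of the wild-type level (log2 fold change -0.48, SE 0.068, limma adjusted p = 0.00013). Cell type markers moved with the genotype. All 7 neural stem and glial markers in the table fell, with a summed level of 76.0 to 82.3 RPKM in ATRX KO against 3347 to 3414 RPKM in ATRX WT, and Olig1 had 0 reads in ATRX KO, with 2 to 4 reads each for Olig2, Ptprz1 and Fabp7. All 5 neuronal markers fell, with sums of 6.27 to 6.89 RPKM in ATRX KO and 167 to 173 RPKM in ATRX WT, and Dcx had 0 reads in ATRX KO. All 7 tested mesenchymal markers, of 8 in the table, rose, with sums of 1156 to 1282 RPKM in ATRX KO and 37.2 to 39.8 RPKM in ATRX WT. Of 5 endothelial markers listed, Pecam1 and Tie1 had no row, and 3 were in the table. Both that were tested rose. The sums over the 3 were 14.4 to 16.4 RPKM in ATRX KO and 0.422 to 0.679 RPKM in ATRX WT. The third, Kdr, was under the filter and overlapped, with 0.206, 0.245 and 0.274 RPKM in ATRX KO and 0.244, 0.339 and 0.296 RPKM in ATRX WT. In bulk RNA, fewer cells of a type and less RNA per cell cannot be told apart, and the part of these marker shifts in any result was not tested. The sums of the neural lists in ATRX KO thus rest on the markers that remained, led by Slc1a3 at 28.7, 33.2 and 30.4 RPKM, Nes at 26.6, 30.3 and 28.0 and Sox2 at 20.6, 18.7 and 20.1.

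Among the 79 tested members 36 rose and 40 fell, and 3 passed neither way. Over all tested rows limma called 89.5%, with 43.6% higher and 45.9% lower in ATRX KO, so the share of members called is near the background and the sizes and identities carry the description. The 3 libraries of each genotype did not overlap for 76 of the 79 members, against 90.5% of all tested rows. The median absolute log2 fold change was 1.73 for members and 0.68 for all tested rows, and the median signed change was -0.15 for members and -0.02 for all rows. Both member medians were the same with genes at 0 reads set to their bound. By at least 2-fold, 21 of the 79 members were higher and 31 lower in ATRX KO, against 2102 and 2387 of all 12201 tested rows. A mean log2 RPKM of 0 or more was reached by 61 members in ATRX KO and 71 in ATRX WT. Of these, 8 reached it in ATRX KO alone and 18 in ATRX WT alone, against 651 and 1237 of all tested rows. Because 3 of 6 libraries suffice for the filter, such rows could pass it through 1 genotype alone. The summed level of all 92 rows was 549.9 to 577.2 RPKM in ATRX KO and 890.4 to 897.2 RPKM in ATRX WT. The leading members differed: Foxk2 and Tbx2 were among those with the highest means in ATRX KO, at 37.4 and 30.1 RPKM, while Hoxa5, Pou3f3 and Pou3f1 led in ATRX WT, at 141, 56.1 and 56.0 RPKM.

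**Figure D1:**
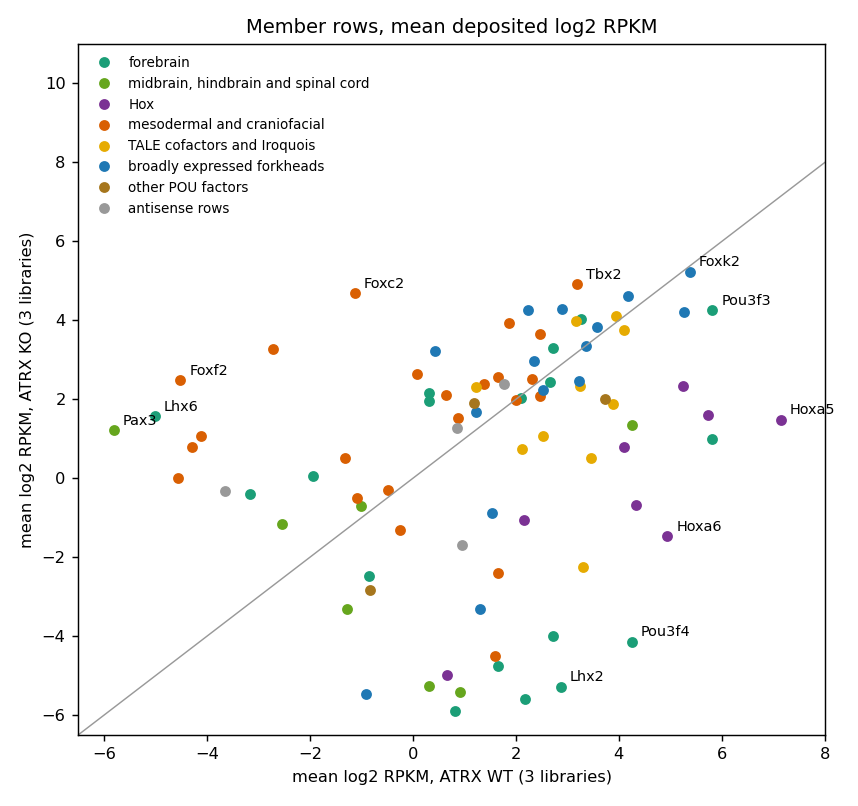
Mean deposited log2 RPKM of the member rows in ATRX KO (vertical axis) against ATRX WT (horizontal axis), for the 88 rows shown, 1 point a row, coloured by family, with a line at equality. Hox points lie below the line and most mesodermal points above it, while forebrain points lie on both sides, from Pou3f4 and Lhx2 at the bottom to Lhx6 at the upper left.

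All 9 Hox rows belong to the HoxA cluster, within 85.3 kb of the minus strand of chromosome 6 (GRCm38). All 9 fell, as did 45.9% of all tested rows. Their summed level was 14.1 to 15.6 RPKM in ATRX KO and 303 to 311 RPKM in ATRX WT, and their median log2 fold change was -4.12, against -0.02 for all tested rows. Hoxa5 (chr6:52201754-52204587), which acts in lung, neck and hindbrain development, was the most abundant member in ATRX WT, with 2.87, 2.69 and 2.72 RPKM in ATRX KO, against 142, 144 and 139 RPKM in ATRX WT. The libraries within each genotype were close together, and the groups stood far apart (log2 fold change -5.66, SE 0.036, limma adjusted p = 1.5e-12), with ATRX KO at 1.95% of the ATRX WT mean. Hoxa6 (chr6:52206288-52208722), its neighbour, which helps to pattern the thoracic skeleton, had 0.426, 0.219 and 0.207 RPKM in ATRX KO, against 31.5, 30.4 and 30.0 RPKM in ATRX WT. No library crossed over, ATRX KO replicate 1 was the highest of its group, and the change was the largest of the cluster (log2 fold change -6.42, SE 0.19, limma adjusted p = 2.7e-09). Hoxa7, the last central gene, had 0.474, 0.626 and 0.692 RPKM in ATRX KO and 21.0, 20.2 and 18.9 RPKM in ATRX WT (-5.01, SE 0.12).

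The anterior genes Hoxa2, Hoxa3 and Hoxa4 had log2 fold changes of -2.92 to -4.12, against -5.01 to -6.42 for the central ones. Hoxa2, which gives the second pharyngeal arch its identity, had 1.69, 1.74 and 1.66 RPKM in ATRX KO and 16.8, 16.9 and 17.3 RPKM in ATRX WT (-3.30, SE 0.048). Hoxa3, needed for thymus and parathyroid, was the Hox gene with the highest level in ATRX KO, with 5.52, 4.85 and 4.63 RPKM there and 39.3, 37.0 and 37.4 RPKM in ATRX WT (-2.92, SE 0.065). Its annotated span covers Hoxa4, Hoxa5 and Hoxa6 on the same strand, so reads of these genes could be shared or set aside by the counting, which is not described in the sources used here. Hoxa4, a cervical gene, had 2.88, 3.17 and 2.93 RPKM in ATRX KO and 52.6, 52.8 and 52.9 RPKM in ATRX WT (-4.12, SE 0.044). All 3 were lower in each ATRX KO library than in any ATRX WT library.

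The posterior genes were the lowest of the cluster in ATRX KO together with Hoxa6. Hoxa9 (chr6:52223100-52231089), known for its part in blood stem cells and leukaemia, had 0.0205, 0.0237 and 0 RPKM in ATRX KO, or 4 reads in all, against 1.55, 1.70 and 1.47 RPKM, or 599 reads, in ATRX WT. It was all but unread in ATRX KO and low in ATRX WT (-5.64, SE 0.30, limma adjusted p = 1.3e-07), and the fitted value depends on the authors' prior count because the ATRX KO reads are few. Hoxa10 (chr6:52231197-52240854), needed in the uterus and lumbar spine, had 0.452, 0.486 and 0.445 RPKM in ATRX KO, against 4.66, 4.48 and 4.26 RPKM in ATRX WT (-3.22, SE 0.082, limma adjusted p = 1.1e-09). Both fell and neither showed overlap between genotypes. Along the cluster, levels in ATRX WT climbed to Hoxa5 and declined to Hoxa9 and Hoxa10, whereas in ATRX KO the highest were Hoxa3, Hoxa4 and Hoxa5, all at or under 5.52 RPKM in every library.

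**Figure D2:**
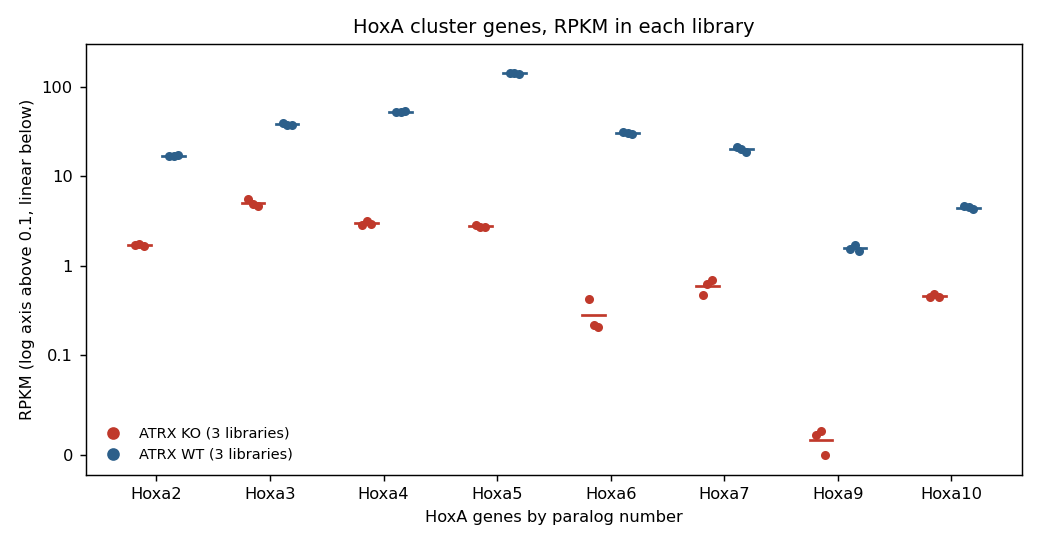
RPKM of 8 HoxA genes in each library, in order of paralog number, on an axis that is logarithmic above 0.1 and linear below, with ATRX KO left of ATRX WT and a bar at each mean of 3 libraries. ATRX KO points are below ATRX WT points for every gene shown, the gap being wide at Hoxa5 (2.76 against 141 RPKM).

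The fall was not shared by all genes around the cluster. All other rows of the table whose gene reaches into the 700 kb on either side were examined, a window chosen after the Hox values were seen. The antisense transcript Hotairm1, which lies at the anterior end of the cluster on the opposite strand and is known in human myeloid cells as a regulator of HOXA genes, had 16.5, 15.6 and 18.1 RPKM in ATRX KO, against 72.1, 73.3 and 73.3 RPKM in ATRX WT (-2.11, SE 0.051). The antisense rows Hoxaas2 and Hoxaas3, which run against the strand of the cluster, fell too, with log2 fold changes of -4.52 and -3.90, and with 0.506, 0.341 and 0.461 RPKM of Hoxaas2 in ATRX KO and 10.8, 10.8 and 10.7 RPKM in ATRX WT. Whether the counting used strand is not stated, so reads of sense and antisense partners cannot be told apart there. Skap2, a signalling adaptor gene on the anterior side of the cluster, 192 kb from the Hoxa5 start, had 25.5, 26.4 and 25.1 RPKM in ATRX KO, against 214, 214 and 209 RPKM in ATRX WT, and fell (-3.05, SE 0.028, limma adjusted p = 5.3e-12). Beyond it, Snx10 had 11.2, 12.3 and 12.7 RPKM in ATRX KO and 12.3, 11.5 and 11.1 RPKM in ATRX WT, groups that overlapped without a call (0.05, SE 0.058). Halr1, a long noncoding RNA that lies between Skap2 and the cluster, rose, with 8.26, 10.5 and 9.45 RPKM in ATRX KO and 6.14, 5.85 and 5.58 RPKM in ATRX WT (0.67, SE 0.084). On the far side, the metabolic gene Hibadh and the autophagy receptor gene Tax1bp1 rose by 0.15 and 0.34, small steps beside the scaling: taking the library size as the reads in the table moved the median of all tested rows to -0.22, against -0.02. Jazf1, a zinc-finger gene next to Tax1bp1 whose start lies 864 kb from that of Hoxa5, fell, with 0.0747, 0.0863 and 0.0467 RPKM in ATRX KO and 2.24, 2.38 and 2.17 RPKM in ATRX WT (-4.71, SE 0.18, limma adjusted p = 1.5e-08). Near the other edge of the window, past Snx10, Hnrnpa2b1 and Cbx3 fell by 0.17 and 0.47. The large falls in this window were thus those of Jazf1, Skap2, Hotairm1, Hoxaas2, Hoxaas3 and the HoxA genes given above.

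**Figure D3:**
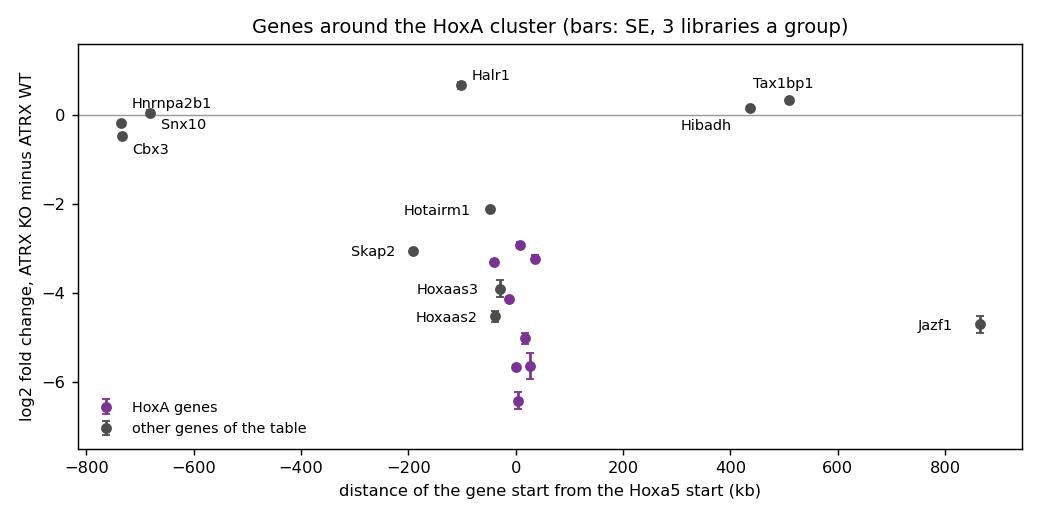
Log2 fold change (ATRX KO minus ATRX WT, bars SE, 3 libraries a group) of tested genes around the HoxA cluster, against the distance of the gene start from the Hoxa5 start in kb. The HoxA genes shown lie between -2.92 and -6.42, with Skap2 at -3.05 beside them and Jazf1 at -4.71 at the far right, while Halr1, Snx10, Hibadh and Tax1bp1 lie at or above 0.

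Of the 11 TALE and Iroquois factors 4 rose and 7 fell, where limma called 89.5% of all tested rows. All 3 Meis genes, whose proteins partner Hox and Pbx proteins, fell. Meis3 had 4.08, 3.44 and 3.51 RPKM in ATRX KO, against 14.4, 14.4 and 15.4 RPKM in ATRX WT, with no overlap (-2.0, SE 0.070). Meis1 had 2.20, 2.10 and 1.95 RPKM in ATRX KO and 5.67, 6.19 and 5.31 RPKM in ATRX WT (-1.45, SE 0.078), and Meis2 had 4.91, 5.17 and 5.14 RPKM in ATRX KO and 9.58, 9.91 and 9.08 RPKM in ATRX WT (-0.91, SE 0.051). Of the Pbx genes, their partners, Pbx4 fell, with 1.5, 1.53 and 1.15 RPKM in ATRX KO and 11.3, 10.7 and 10.9 RPKM in ATRX WT (-2.95, SE 0.11), and Pbx2 fell by 0.35. Pbx3 had 18.1, 16.9 and 17.1 RPKM in ATRX KO and 15.6, 15.4 and 15.1 RPKM in ATRX WT, a rise of 0.17 that turned to -0.02 when the library size was taken as the reads in the table and had no call under quantile normalization, at 0.07 (limma adjusted p = 0.096).

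Iroquois genes sit in clusters of their own and pattern the neural plate, heart and limb. Irx1 (chr13:71957921-71963723) had 0.208, 0.204 and 0.140 RPKM in ATRX KO, against 9.93, 9.40 and 10.0 RPKM in ATRX WT. It was read at a trace in every ATRX KO library (-5.53, SE 0.13, limma adjusted p = 8.2e-10). Its cluster neighbour Irx2 (chr13:72628820-72634198) went the other way, with 16.6, 15.4 and 15.4 RPKM in ATRX KO and 8.95, 8.89 and 9.01 RPKM in ATRX WT (0.82, SE 0.042, limma adjusted p = 1.1e-07). The second cluster split as well: Irx3 rose, with 5.32, 4.53 and 5.02 RPKM in ATRX KO and 2.27, 2.43 and 2.26 RPKM in ATRX WT (1.08, SE 0.075). Irx5 fell, with 1.64, 1.59 and 1.75 RPKM in ATRX KO and 4.47, 4.31 and 4.13 RPKM in ATRX WT (-1.36, SE 0.069). None of these genotype groups overlapped, as was the case for 90.5% of all tested rows.

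Of the 19 forebrain factors 16 were tested: 6 rose, 9 fell and 1 had no call, where limma called 89.5% of all tested rows. The median log2 fold change of the 16 was -0.89. The 4 class III POU genes, used in neural progenitors and neurons, all fell, with a summed level of 19.5 to 22.1 RPKM in ATRX KO and 137 to 138 RPKM in ATRX WT. Pou3f4 (chrX:110814280-110817207), known for its role in the inner ear and striatum, had 0 reads in each ATRX KO library, against 19.0, 18.6 and 19.4 RPKM, or 2430 reads, in ATRX WT. Against a floor of 3 reads over the group it was at least 531-fold lower in ATRX KO. Pou3f2, which promotes neuronal fate, had 0.0422, 0.0365 and 0.0922 RPKM in ATRX KO, against 6.42, 7.10 and 6.27 RPKM in ATRX WT (-6.72, SE 0.27, limma adjusted p = 2e-08). Pou3f1, used in the early embryo and in myelinating Schwann cells, had 2.12, 1.84 and 1.99 RPKM in ATRX KO and 56.4, 54.9 and 56.7 RPKM in ATRX WT (-4.81, SE 0.054). Pou3f3, a factor of upper-layer cortical neurons, stayed the highest of the 4 in ATRX KO, with 20.0, 17.7 and 19.6 RPKM there and 55.9, 56.8 and 55.6 RPKM in ATRX WT (-1.56, SE 0.046). In ATRX WT, Pou3f1 and Pou3f3 did not differ beyond the spread of their libraries, whereas in ATRX KO the libraries of Pou3f3 were well above those of Pou3f1.

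Other anterior factors had no reads in ATRX KO or few. Lhx2 (chr2:38339281-38369733), a selector of cortical identity, had 1 read in ATRX KO, in replicate 2, against 2415 reads and 7.5, 7.19 and 7.14 RPKM in ATRX WT. The ratio of ATRX WT to ATRX KO is 1583 with a 95% counting interval of 284 to 62535. Foxb1, a hypothalamic and diencephalic forkhead, had 0 reads in ATRX KO, against 1589 reads and 4.51, 4.31 and 4.75 RPKM in ATRX WT, and was at least 347-fold lower. Six3, which sets up the anterior forebrain and eye, had 0 reads in ATRX KO, against 762 reads and 1.67, 1.75 and 1.85 RPKM in ATRX WT, and was at least 166-fold lower. These intervals and floors cover counting error only. Pax6, the paired-box factor of dorsal radial glia and the eye, had 0.0278, 0.0160 and 0.0304 RPKM in ATRX KO and 2.91, 3.2 and 3.27 RPKM in ATRX WT (-6.40, SE 0.18). Each of these was read in all 3 ATRX WT libraries.

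Another set of forebrain factors was higher in ATRX KO. Lhx6 (chr2:36081953-36105408), the LIM factor of cortical interneurons born in the ganglionic eminence, had 2.86, 3.03 and 2.96 RPKM, or 814 reads, in ATRX KO, against 0.00745, 0.0207 and 0.0141 RPKM, or 6 reads, in ATRX WT. It was the largest forebrain rise (6.59, SE 0.18, limma adjusted p = 1.6e-09), whereas its relative Lhx2 was among the largest falls. Emx2, which patterns cortical areas, had 3.89, 4.85 and 4.75 RPKM in ATRX KO and 1.30, 1.35 and 1.01 RPKM in ATRX WT (1.87, SE 0.13). The Zic genes are zinc-finger factors of the dorsal neural tube, cerebellum and meninges that are counted here with the forebrain family. They rose in all 3 tested cases. Zic1 had 17.8, 15.0 and 16.6 RPKM in ATRX KO and 9.86, 9.44 and 9.47 RPKM in ATRX WT (0.77, SE 0.062). Zic5 had 4.15, 3.30 and 4.09 RPKM in ATRX KO and 1.23, 1.18 and 1.24 RPKM in ATRX WT (1.63, SE 0.099), and Zic2 rose by 0.57. Their sum with Zic4 was 28.6 to 32.5 RPKM in ATRX KO and 17.5 to 17.7 RPKM in ATRX WT.

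The linked pair Dlx1 and Dlx2, interneuron factors of the ventral forebrain, differed little between genotypes. Dlx1 had 5.34, 5.32 and 5.50 RPKM in ATRX KO and 6.52, 6.26 and 6.21 RPKM in ATRX WT, a log2 fold change of -0.23 (SE 0.047, limma adjusted p = 0.0014) that missed the threshold under quantile normalization (limma adjusted p = 0.075). Dlx2 had 4.42, 3.97 and 3.72 RPKM in ATRX KO, against 4.31, 4.14 and 4.32 RPKM in ATRX WT, overlapping groups without a call (-0.08, SE 0.072, limma adjusted p = 0.32). Its sign turned under quantile normalization, to 0.16, and it passed as lower with the library size as the reads in the table or without ATRX KO replicate 1, at -0.28 and -0.15. The 3 forebrain rows under the filter were Lhx9, with 0.719, 0.804 and 0.713 RPKM in ATRX KO and 0.111, 0.0814 and 0.114 RPKM in ATRX WT, Otx1, with 0.129, 0.135 and 0.222 RPKM in ATRX KO and 0.576, 0.471 and 0.563 RPKM in ATRX WT, and Zic4. Beside these results, the neural stem, glial and neuronal markers were lower in ATRX KO in all 12 cases, as given above.

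**Figure D4:**
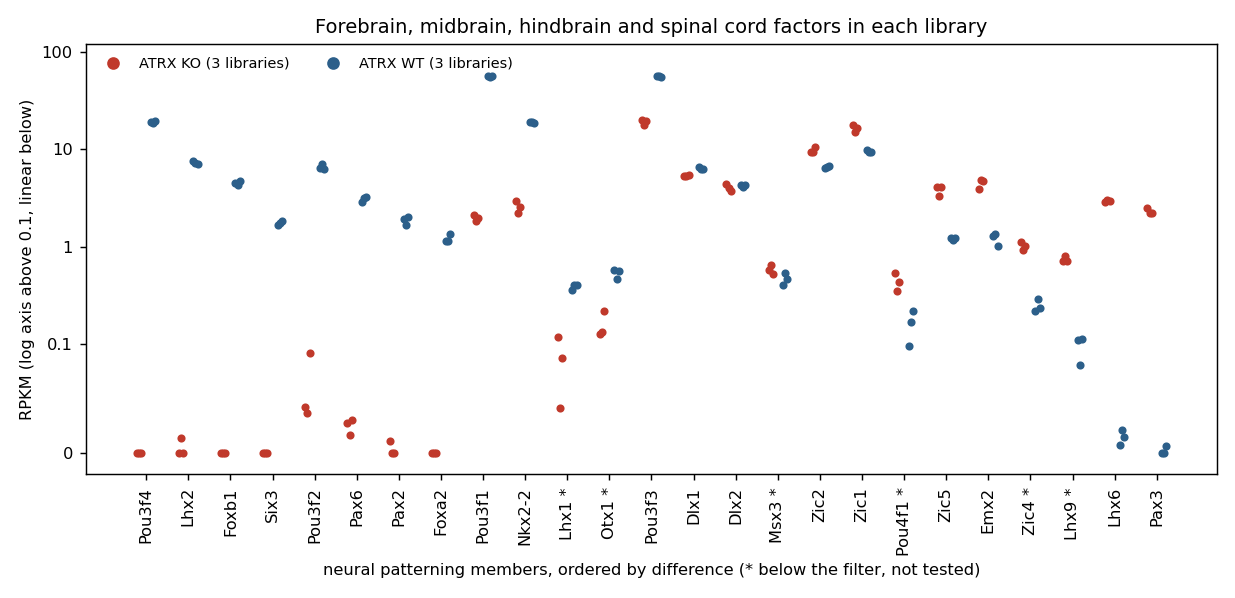
RPKM in each library of 25 forebrain, midbrain, hindbrain and spinal cord members, ordered by their log2 difference, ATRX KO left of ATRX WT, on an axis that is logarithmic above 0.1 and linear below. At the left, Pou3f4, Foxb1 and Six3 lie at 0 in ATRX KO, and at the right, Lhx6 and Pax3 lie near 0 in ATRX WT.

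Further back in the neural tube, 4 of 7 factors were tested. Of these 1 rose and 3 fell, where limma called 89.5% of all tested rows. Pax3 (chr1:78101267-78197134), a factor of the dorsal neural tube, neural crest and muscle precursors, had 2.5, 2.22 and 2.22 RPKM, or 696 reads, in ATRX KO, against 1 read over the 3 ATRX WT libraries. It had the largest fitted rise of all tested members, and the ratio of ATRX KO to ATRX WT was 1062 with a 95% counting interval of 190.0 to 42009. Pax2, of the midbrain-hindbrain boundary, eye and kidney, went the opposite way, with 1 read in ATRX KO against 668 reads and 1.93, 1.68 and 2.02 RPKM in ATRX WT, a ratio of ATRX WT to ATRX KO of 438 with an interval of 78.3 to 17316. Foxa2, the floor plate forkhead, had 0 reads in ATRX KO against 338 reads and 1.15, 1.14 and 1.34 RPKM in ATRX WT, and was at least 73.8-fold lower. Nkx2-2, of ventral spinal cord and the oligodendrocyte lineage, had 2.93, 2.20 and 2.54 RPKM in ATRX KO, against 19.2, 19.0 and 18.6 RPKM in ATRX WT (-2.89, SE 0.093, limma adjusted p = 4.6e-09). The other 3, under the filter, were Lhx1, Msx3 and Pou4f1. They had 18, 104 and 131 reads over ATRX KO, and 126, 127 and 73 over ATRX WT, in that order. Scaled by library size, Msx3 had means of 0.585 RPKM in ATRX KO and 0.470 RPKM in ATRX WT, and its groups overlapped.

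Most mesodermal and craniofacial factors went the other way. Of 24 rows 20 were tested. Of these 15 rose, 4 fell and 1 had no call, where 43.6% of all tested rows rose and 45.9% fell. The median log2 fold change was 1.32 against -0.02 for all tested rows. Their summed level was 149.0 to 159.9 RPKM in ATRX KO and 65.5 to 67.1 RPKM in ATRX WT. Forkheads led. Foxf2 (chr13:31625816-31631403), known in gut mesenchyme, palate and brain pericytes, had 5.78, 5.20 and 5.75 RPKM in ATRX KO, against 0.0225, 0.0208 and 0.0107 RPKM, or 5 reads, in ATRX WT. It was close to unread in every ATRX WT library (7.0, SE 0.14, limma adjusted p = 3.1e-10). Foxc2 (chr8:121116171-121118895), of paraxial mesoderm and lymphatic valves, had 29.2, 22.2 and 26.3 RPKM in ATRX KO, against 0.450, 0.362 and 0.50 RPKM in ATRX WT, and was among the more abundant members in ATRX KO (5.82, SE 0.13, limma adjusted p = 6e-10). Replicate 2 was the lowest of its ATRX KO libraries. Foxs1, known in pericytes and neural crest derivatives, had 9.63, 10.2 and 8.97 RPKM in ATRX KO and 0.0610, 0.113 and 0.154 RPKM in ATRX WT (5.99, SE 0.20). Foxl1, of gut mesenchyme, had 1.6, 1.59 and 1.95 RPKM in ATRX KO and 0.0180, 0.0333 and 0.0426 RPKM in ATRX WT (5.08, SE 0.20). Foxf1 and Foxc1, the paralogs of Foxf2 and Foxc2, had higher levels than these in ATRX WT and rose less. Foxf1, of lung and gut mesenchyme, had 5.93, 6.21 and 6.42 RPKM in ATRX KO and 0.912, 1.08 and 1.11 RPKM in ATRX WT (2.56, SE 0.088). Foxc1, of the eye, meninges and skull, had 12.8, 11.8 and 13.2 RPKM in ATRX KO and 5.47, 5.62 and 5.53 RPKM in ATRX WT (1.18, SE 0.052).

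Homeobox, T-box and GATA members of this family rose as well. Msx1, which acts downstream of BMP signals in tooth and skull, had 15.3, 15.8 and 14.5 RPKM in ATRX KO, against 3.40, 3.65 and 3.87 RPKM in ATRX WT (2.05, SE 0.060). Dlx3, of placenta, hair and tooth, had 2.31, 1.83 and 2.09 RPKM in ATRX KO and 0.0614, 0.0189 and 0.0291 RPKM in ATRX WT, with no overlap (5.18, SE 0.25, limma adjusted p = 6.6e-08). Tbx2, a repressor used in heart, limb and melanocytes, was among the most abundant members in ATRX KO, with 30.9, 29.2 and 30.1 RPKM there and 9.15, 8.67 and 9.53 RPKM in ATRX WT (1.72, SE 0.044). Gata2, of blood progenitors and endothelium, had 1.44, 1.24 and 1.55 RPKM in ATRX KO and 0.370, 0.357 and 0.420 RPKM in ATRX WT (1.83, SE 0.12), and Gata6, of heart and endoderm, rose by 0.66. Six5, Foxl2 and Six4 rose by 1.46, 1.01 and 0.90. Tbx18, of heart and ureter mesenchyme, rose by 0.21, which became 0.01 without a call when the library size was taken as the reads in the table (limma adjusted p = 0.84).

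The falls in this family were few. Six2, the nephron progenitor factor, had 3 reads in ATRX KO against 744 reads and 3.14, 2.86 and 3.00 RPKM in ATRX WT, a ratio of ATRX WT to ATRX KO of 163 with a 95% counting interval of 55.4 to 789.9. Nkx3-2, a repressor in cartilage and spleen development, had 0.115, 0.133 and 0.201 RPKM in ATRX KO, against 3.12, 3.12 and 3.04 RPKM in ATRX WT (-4.05, SE 0.16). Tbx15, of skeleton and fat, fell by 0.40. Pax9, of the sclerotome and teeth, had 3.83, 4.15 and 3.71 RPKM in ATRX KO and 4.08, 3.88 and 4.04 RPKM in ATRX WT, overlapping and without a call (-0.04, SE 0.063, limma adjusted p = 0.57). That result depended on scaling: it was 0.22 and higher under quantile normalization, and -0.23 and lower with the library size as the reads in the table. The 4 rows under the filter were Foxq1, with 213 reads over ATRX KO and 7 over ATRX WT, Foxd1, with 129 and 133, Foxd2, with 160 and 213, and Tbx6, with 49 and 165, in the same order. Scaled by library size, Foxd1 had means of 0.679 RPKM in ATRX KO and 0.460 RPKM in ATRX WT, and Foxd2 had 0.787 and 0.689 RPKM. Both were higher in each ATRX KO library than in any ATRX WT library. Tbx6 was lower, with means of 0.369 RPKM in ATRX KO and 0.823 RPKM in ATRX WT. Beside the rises of this family, all 7 tested mesenchymal markers and both tested endothelial markers were higher in ATRX KO, whereas Kdr overlapped, and Col3a1 had 681, 767 and 726 RPKM in ATRX KO against 0.0671, 0.0398 and 0.0272 RPKM in ATRX WT.

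**Figure D5:**
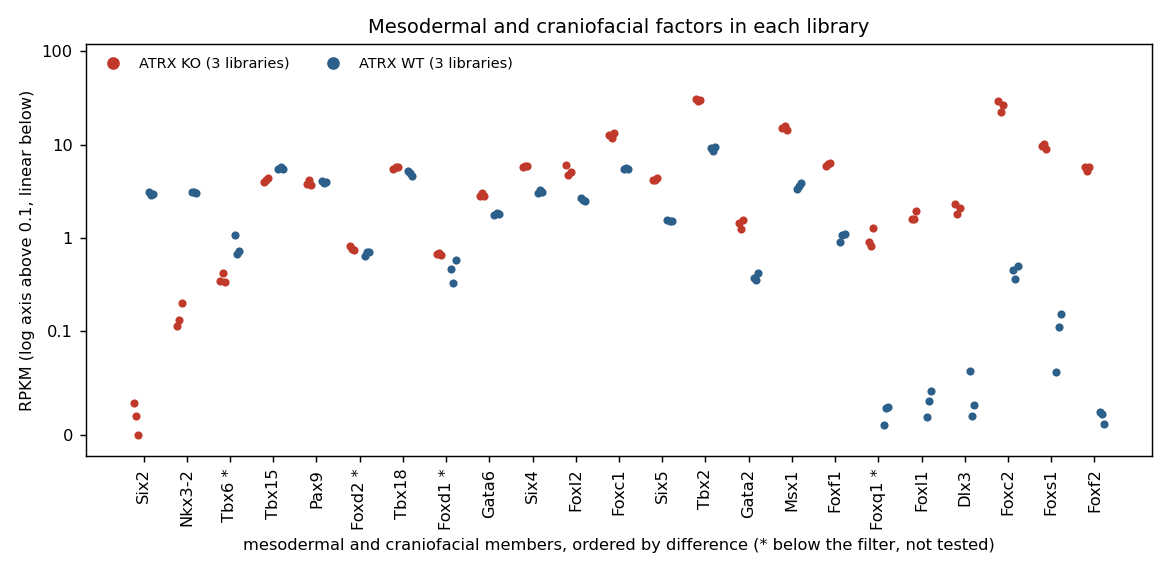
RPKM in each library of 23 mesodermal and craniofacial members, ordered by their log2 difference, ATRX KO left of ATRX WT, on an axis that is logarithmic above 0.1 and linear below. Foxf2, Foxs1, Foxc2, Dlx3 and Foxl1, at the right, lie at or above 1.59 RPKM in every ATRX KO library and at or below 0.50 RPKM in every ATRX WT library, while Six2 and Nkx3-2, at the left, are reversed.

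The broadly expressed forkheads, a family label that also takes in the more restricted Foxj1, Foxo6 and Foxr2, moved less than the members as a whole. Of 15 rows 14 were tested, of which 7 rose, 6 fell and 1 had no call, where limma called 89.5% of all tested rows. The median log2 fold change was 0.13. The median absolute change was 0.68, against 1.73 for all tested members and 0.68 for all tested rows. The rises were led by Foxp1, a factor of B cells, heart and motor neurons, with 9.71, 9.39 and 9.09 RPKM in ATRX KO and 1.29, 1.38 and 1.33 RPKM in ATRX WT (2.81, SE 0.060, limma adjusted p = 3.9e-10). Foxk1, a repressor of autophagy genes, had 19.4, 19.2 and 18.9 RPKM in ATRX KO and 4.58, 4.79 and 4.70 RPKM in ATRX WT (2.03, SE 0.039), whereas its paralog Foxk2, also among the most abundant members in ATRX KO, fell by 0.15 with 38.7, 37.0 and 36.5 RPKM in ATRX KO and 41.1, 42.2 and 41.1 RPKM in ATRX WT. Foxp4 had 20.8, 18.6 and 18.9 RPKM in ATRX KO and 7.10, 7.22 and 8.13 RPKM in ATRX WT (1.38, SE 0.064). Foxj1, the switch for motile cilia, was the largest fall, with 0.0897, 0.119 and 0.0374 RPKM in ATRX KO and 2.36, 2.45 and 2.52 RPKM in ATRX WT (-4.63, SE 0.28). Foxm1, which drives genes of mitosis, had 19.1, 18.6 and 18.0 RPKM in ATRX KO and 38.2, 38.1 and 39 RPKM in ATRX WT (-1.05, SE 0.032, limma adjusted p = 3.5e-09). Foxj2 fell by 0.76.

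The Foxo factors, which respond to insulin and stress signals, split. Foxo6, the brain-enriched member, fell, with 0.654, 0.393 and 0.553 RPKM in ATRX KO and 3.15, 2.52 and 3.03 RPKM in ATRX WT (-2.41, SE 0.18). Foxo3 rose, with 8.13, 7.36 and 7.78 RPKM in ATRX KO and 5.04, 4.76 and 5.54 RPKM in ATRX WT (0.60, SE 0.068). Foxo1 fell by 0.28, a call lost under quantile normalization (limma adjusted p = 0.072). Foxo4 had 10.5, 9.94 and 9.99 RPKM in ATRX KO and 10.3, 10.1 and 10.2 RPKM in ATRX WT, overlapping, without a call (-0.01, SE 0.040), and at -0.21 it passed as lower with the library size as the reads in the table. Smaller rises were those of Foxn3 (0.47), Foxj3 (0.43) and Foxn2 (0.27), the last without a call at that library size (limma adjusted p = 0.14). Foxr2, which is normally silent outside the testis, counted 1 read over ATRX KO and 194 over ATRX WT and was under the filter. Of the other POU factors, Pou2f1 rose, with 3.76, 3.54 and 3.89 RPKM in ATRX KO and 2.21, 2.38 and 2.19 RPKM in ATRX WT (0.72, SE 0.070). Pou6f1 fell, with 3.86, 4.30 and 3.91 RPKM in ATRX KO and 12.7, 13.6 and 13.8 RPKM in ATRX WT (-1.73, SE 0.059), and Pou2f2, a B-cell factor, was under the filter with 33 and 220 reads in ATRX KO and ATRX WT.

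Each of the 4 antisense rows lay on the same side as the factor beside it. Lhx1os fell, with 0.159, 0.245 and 0.232 RPKM in ATRX KO and 1.88, 1.62 and 2.02 RPKM in ATRX WT (-2.65, SE 0.14), and its neighbour Lhx1, untested, was also lower in each ATRX KO library. Foxl2os rose by 0.61 beside Foxl2. Foxd2os rose by 0.41 but had no call with the library size as the reads in the table (limma adjusted p = 0.079). Emx2os, under the filter, was at 305 reads over ATRX KO and 40 over ATRX WT beside the rise of Emx2. Emx2os and Emx2 share 264 bases on opposite strands, Foxl2os and Foxl2 share 12 bases and Zic1 and Zic4 share 3398 bases. Without a stated strand setting, reads in those shared bases cannot be told apart.

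Members that lie next to each other in the genome were set side by side, counting as 1 stretch members no more than 1000 kb from the next. This gave 16 stretches with 41 members. The called members were all higher in ATRX KO in 7 stretches, all lower in 5 and of both directions in 4. A stretch with only 1 called member could not be of both directions. Those of Lhx1os, Emx2, Dlx1, Foxd2os and Zic1 were such stretches, and they count among the stretches of 1 direction. On chromosome 13, Foxf2 and Foxc1 rose together, and the untested Foxq1 beside them was higher in each ATRX KO library. On chromosome 8, Foxf1, Foxc2 and Foxl1 rose within 46.3 kb. On chromosome 17, Six3 and Six2 fell together within 74.7 kb, although they stand in different families here. On chromosome 14, Zic5 and Zic2 rose, and on chromosome 2, Nkx2-2 and Foxa2 fell. Split stretches included Irx1 with Irx2, Irx3 with Irx5, and Foxj3 with Foxo6 on chromosome 4. Foxj3 also lies in a part of chromosome 4, 110 to 120 Mb, where 37 of 42 genes whose mean log2 RPKM reached 3 rose, with a median log2 fold change of 1.30, against 0.51 for the other 385 such genes of that chromosome; Foxd2 and Foxd2os lie there too. Its part in the values of these members was not tested.

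Other patterning factors that the symbol rule leaves out also went both ways. Of 76 listed 46 had rows and 39 were tested. Of these 21 rose, 17 fell and 1 had no call, where limma called 89.5% of all tested rows. The median log2 fold change was 0.63, and the median absolute change was 3.14, against 0.68 for all tested rows. The largest rises were those of Zfhx4, a zinc-finger homeobox gene with 2.05, 2.02 and 2.04 RPKM in ATRX KO and 0.00192, 0.00177 and 0.00182 RPKM in ATRX WT, Twist2, a mesenchymal factor with 35.8, 30.3 and 35.2 RPKM in ATRX KO and 0.0609, 0.0751 and 0.0961 RPKM in ATRX WT, and Isl1, a LIM factor of motor neurons and heart progenitors with 6.61, 6.70 and 6.93 RPKM in ATRX KO and 0.0317, 0.0292 and 0.0200 RPKM in ATRX WT. Large falls were those of Gsx1, of ventral forebrain progenitors, with 0, 0 and 0.0816 RPKM in ATRX KO and 13.7, 13.5 and 14.4 RPKM in ATRX WT, and Nr2e1, a neural stem cell receptor, with 0.0102, 0 and 0.0149 RPKM in ATRX KO and 3.39, 3.65 and 3.18 RPKM in ATRX WT. Each of these 5 was near 0 in each library of one genotype and read in all libraries of the other. Twist1 and Prrx1 are in this list and among the mesenchymal markers.

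The Polycomb and trithorax genes that act on Hox clusters had log2 fold changes within 1.88 in size, where the HoxA genes given above fell by 2.92 or more. All 45 listed were tested, of which 24 rose, 12 fell and 9 had no call, where limma called 89.5% of all tested rows. Their median log2 fold change was 0.12, and the values ran from -1.88 to 1.15. The largest falls were Jarid2 (-1.88), a Polycomb cofactor with 4.08, 3.56 and 3.46 RPKM in ATRX KO and 13.8, 13.8 and 13.2 RPKM in ATRX WT, Phc1 (-1.06) and Rbbp4 (-0.85). The largest rises were Kmt2a (1.15), the trithorax methyltransferase with 17.8, 15.8 and 15.9 RPKM in ATRX KO and 7.37, 7.56 and 7.29 RPKM in ATRX WT, Ezh1 (1.15) and Aebp2 (1.12). Every listed gene reached a mean log2 RPKM of 0 in both genotypes. The 19 genes listed as neighbours of the Hox clusters include those of HoxB, HoxC and HoxD. Of these 7 rose, 6 fell and 6 had no call, beside the same 89.5% of all tested rows. Their median absolute change was 0.34. Jazf1 (-4.71), Skap2 (-3.05) and Snx11 (-2.71) fell most, and Nfe2l1 (1.17), Mtx2 (0.98) and Ube2z (0.58) rose most.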

How the data were processed

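RNA-seq libraries came from 6 samples, 3 of each genotype, made with a stranded kit for mRNA and sequenced from both ends, per the labels' protocols. A single unit was used: log2 RPKM, deposited by the authors for 13069 genes. STAR 2.5.3a, edgeR 3.20.9, HTSeq 0.11.2, Trim Galore and FastQC appear in the submitters' processing notes, as do the builds mm9 and mm10, with no role given. The filter behind the table and the counting options are not given in the sources used here. Whole reads, gene lengths and the prior count, on average 2 reads, were recovered from the steps of the deposited log2 values for 100% of rows with a tolerance of 0.0001 reads. RPKM levels were computed from these reads without the prior.

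Rows that reached log2 RPKM 0 in 3 or more of 6 libraries entered a limma 3.58.1 fit (R 4.3.3) on the deposited log2 values (trended empirical Bayes, two-sided, Benjamini-Hochberg over 12201 rows). Because the unit is log2 RPKM, no count model is the main test. The fit was tested on simulated data. The authors' scaled library sizes were 0.932 to 0.935 times the table's reads for ATRX KO and 1.07 times for ATRX WT. Replicates differed by more than sampling noise, at a chi-square per degree of freedom of 1.89 to 7.24, the highest value being between ATRX KO replicates 1 and 2.

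Values in every library are given, where reported, for up to 5 members each way per family by size of change, all Hox genes, the highest member of each genotype, up to 3 uncalled members per family, and up to 3 genes each way of the context lists. All other members, the genes around HoxA and the chromosome 4 interval were named after their values were seen, since every member is accounted for. Some genes are not reported here by name, though counts and sums include them. Members and lists were chosen with earlier results of these data known. Alternatives were voom weights, other scalings, filters and prior counts, no trend, a replicate block and leaving out each library. Positions are from GENCODE M21 (GRCm38), promoter windows from RefSeq (GRCm38.p6).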

Additional observations from a re-analysis of the deposited data

How the results depend on the processing

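The 79 tested members and the counts of rises and falls were recomputed under 15 alternatives, giving 1163 values, of which 1149 kept their direction and their side of the threshold. The count of members that rose was 25 to 42 and of those that fell 29 to 45, the extremes being a filter at log2 RPKM 2, which tested 57 members, and no filter, which tested all 92. Leaving out 1 library gave 36 rises each time and 40 to 41 falls. Of the values, 4 turned: Pbx3 to -0.023 with the library size as the reads in the table, Dlx2 to 0.16 and Pax9 to 0.22 under quantile normalization, and Foxo4 to 0.0031 without ATRX KO replicate 2, its lowest value without 1 library being -0.037. Another 6 lost and 4 gained a call, all named in the report with their setting. Taking the library size as the reads in the table moved the median of all tested genes to -0.22, against -0.02, with 32 members higher and 43 lower. A replicate block on the shared replicate numbers gave 36 rises and 40 falls; same-numbered libraries did not deviate together (correlations -0.19, 0.24 and -0.13 over 7265 genes), so the numbers were not read as a pairing. Read depth limits the members with few reads, whose fitted fold changes depend on the prior count.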
